A study of Mus musculus with 11 samples.

Results

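The genes described here are 36 listed genes of glycolysis, lactate handling, the pentose phosphate pathway and glycogen, measured in mouse macrophages in 3 states. They were taken as a named list. Where several probe sets carried a gene's symbol and no other, the brightest on average over all 11 arrays stood for the gene. Of the 36 genes, 35 had such a probe set, out of 18193 genes tested in all. G6pdx, which encodes the first enzyme of the pentose phosphate pathway, was not analysed here. All values are deposited log2 values, so a difference of 1 is a 2-fold change. Levels are compared only within a probe set, since probe sets differ in brightness.

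All cells came from bone marrow of Rag1-/- C57BL/6 mice aged 7 weeks, so the controls carry the Rag1 deletion as well; such mice lack mature T and B cells. The marrow was cultured for 7 days and cells bearing the macrophage surface protein F4/80 were sorted. M0 cells (5 arrays) received no cytokines. M1 cells (3 arrays) received IFN-g and, for the last 24 h, LPS. M2a cells (3 arrays) received IL-4 and IL-13. The series takes M0 as its common standard, so each cytokine state was set against M0, and M1 was also set against M2a; the first 2 comparisons share the M0 arrays. The labels number the replicates without saying whether they came from separate mice or pools, so the p-values reflect the spread among the samples at hand, part or all of which may be technical.

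Glycolysis breaks glucose down to pyruvate in the cytosol, and pyruvate either enters the mitochondrion through pyruvate dehydrogenase or is turned into lactate and exported. The pentose phosphate pathway branches off after the first step and supplies NADPH and ribose. Macrophages activated with LPS and IFN-g are known for high glucose uptake and lactate output, and macrophages activated with IL-4 for oxidative metabolism. The transcription factor HIF-1 drives many glycolytic genes through the core letters ACGTG or GCGTG in their promoters.

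Promoter windows from RefSeq (build GRCm38.p6), running from 250 bases before to 50 bases after a gene's start, were found for 35 of the 36 genes, Slc2a3 being the one without; several genes have more than 1 start, which gave 47 windows. The 4 windows below are shown because they belong to genes with contrasting patterns in the 2 cytokine states. Against M0, Pfkfb3 rose in M1 and did not pass in M2a, Slc2a1 rose in both, Ldha rose slightly in M1 and Fbp1 rose in M2a. They lie at chr2:11502041-11502340 on the minus strand (Pfkfb3), chr4:119108495-119108794 on the plus strand (Slc2a1), chr7:46845554-46845853 on the plus strand (Ldha) and chr13:62888233-62888532 on the minus strand (Fbp1). They are written 5′ to 3′ on the gene's strand, and capitals mark every ACGTG or GCGTG on either strand.
Pfkfb3: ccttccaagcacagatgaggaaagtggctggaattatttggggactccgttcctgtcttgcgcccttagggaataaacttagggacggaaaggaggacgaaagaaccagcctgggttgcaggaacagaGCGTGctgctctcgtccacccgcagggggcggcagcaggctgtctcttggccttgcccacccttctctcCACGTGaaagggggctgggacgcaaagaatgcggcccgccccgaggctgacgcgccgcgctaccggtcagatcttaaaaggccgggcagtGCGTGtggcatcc
Slc2a1: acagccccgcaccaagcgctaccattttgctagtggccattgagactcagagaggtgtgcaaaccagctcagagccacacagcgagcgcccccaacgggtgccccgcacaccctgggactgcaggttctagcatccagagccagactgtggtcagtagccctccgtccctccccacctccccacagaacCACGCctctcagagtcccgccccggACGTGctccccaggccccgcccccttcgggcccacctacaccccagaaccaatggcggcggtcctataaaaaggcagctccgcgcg
Ldha: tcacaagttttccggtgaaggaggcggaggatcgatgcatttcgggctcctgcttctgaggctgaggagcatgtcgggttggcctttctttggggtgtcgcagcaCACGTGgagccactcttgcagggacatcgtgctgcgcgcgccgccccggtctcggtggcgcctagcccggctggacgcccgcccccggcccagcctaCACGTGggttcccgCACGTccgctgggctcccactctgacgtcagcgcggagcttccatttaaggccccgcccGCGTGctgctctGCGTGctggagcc
Fbp1: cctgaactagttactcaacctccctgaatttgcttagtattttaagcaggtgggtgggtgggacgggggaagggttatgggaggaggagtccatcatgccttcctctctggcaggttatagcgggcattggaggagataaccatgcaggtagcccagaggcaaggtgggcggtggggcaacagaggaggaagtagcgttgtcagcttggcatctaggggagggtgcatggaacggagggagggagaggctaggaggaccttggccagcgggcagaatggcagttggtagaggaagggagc
The Ldha window shown holds 7 such cores, counting both strands, the Pfkfb3 window shown 4, the Slc2a1 window 2 and the Fbp1 window 0. A CACGTG is counted once on each strand. Ldha and Pfkfb3 each have another window, not shown, which holds 2 cores for Ldha and 1 for Pfkfb3. At least 1 core lay in 35 of the 47 windows (74.5%), against 43.8% of 32851 promoter windows of the same length. The windows of the listed genes were also richer in G and C, with a median of 60.7% against 52.7%. Among windows of at least 60% GC, 25 of 28 (89.3%) held a core, against 69.2% of 9690. The other motifs reported, also searched on both strands, were the E-box CACGTG, which contains ACGTG on both strands, and the STAT6-type site, which has TTC and GAA with 4 bases between them. They lay in 4 (8.5%) and 3 (6.4%) of the 47 windows, against 7.2% and 7.0% of all windows. A match describes the letters in these windows, not binding.

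Several properties of the arrays bear on every result. On all probe sets, averaging M0 arrays 1 to 3 gave the value that averaging M0 arrays 4 and 5 gave, to within 8.3e-05, so these 5 arrays do not vary independently. M0 was also the most variable group: a listed gene had a median SD of 0.26 there, against 0.05 for M1 and 0.11 for M2a. The difference between 5′ and 3′ actin control probe sets, a sign of RNA integrity, ran from -1.27 to 0.05 in M0, from 0.13 to 0.18 in M1 and from -0.63 to -0.53 in M2a. The mean of the hybridization controls ran from 10.44 to 11.56 in M0, 9.35 to 9.56 in M1 and 9.59 to 9.78 in M2a. These ranges do not overlap, so fits with this covariate extrapolate between the groups and cannot separate it from them. The spiked poly(A) controls averaged 9.43 in M0, 5.63 in M1 and 6.23 in M2a, and the 18S ribosomal RNA probe sets 9.25, 6.25 and 8.56. The actin difference in M2a lay within the M0 range, and only M1 lay above it. The other measures differed between all groups without overlap. The part of these 4 measures in the differences was not tested beyond the fits that carry the first 2 as covariates.

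The sorted cells carried macrophage transcripts, and M0 also carried others. The log2 of the summed level of 10 macrophage markers ran from 15.12 to 15.57 in M0, 15.80 to 15.81 in M1 and 14.63 to 14.75 in M2a. Adgre1, the gene of F4/80, averaged 11.19, 12.41 and 11.74. Against M0, 5 of these 10 markers rose and 1 fell with the M1 treatment, while 6 fell and 2 rose with that of M2a. The sum over 11 of 13 neutrophil-lineage markers ran from 15.73 to 16.71 in M0, 13.60 to 13.71 in M1 and 9.12 to 9.25 in M2a, and 10 of the 11 fell in M1 and 11 of 11 in M2a. Of 11 mast cell, basophil and eosinophil markers, 11 fell in M1 and 10 in M2a, and of 17 cell cycle genes 16 fell in M1 and 15 in M2a. Of all genes, 22.1% rose and 17.6% fell in M1 against M0, and 18.6% rose and 13.3% fell in M2a. Fewer cells of a type and less RNA per cell cannot be told apart in such bulk samples.

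In M1 against M0, most of the listed genes of glycolysis rose, and 4 of the 6 listed pentose phosphate genes measured fell. The largest rises were those of Pfkfb3 (9.41-fold), which makes the main activator of phosphofructokinase, and of Eno2 (5.40-fold), an enolase. The largest falls were those of the glucose transporter Slc2a3 (29.8-fold) and of Pygl (3.75-fold), the glycogen phosphorylase of liver and leukocytes. In the limma fit with Benjamini-Hochberg adjustment over all genes, 27 of the 35 genes passed an adjusted p of 0.05, where 39.7% of all genes did; 20 rose (22.1% of all genes) and 7 fell (17.6%). At least 2-fold changes were found in 13, against 12.7% of all genes; 11 of them were rises (6.27% of all genes) and 2 were falls (6.41%). The arrays of the groups did not overlap for 30 of the 35, against 40.1% of all genes. The median difference of the 35 was 0.55 and that of all genes 0.06. For the 35 it was 0.34 after quantile normalization, 0.23 with the actin covariate and 0.18 with the hybridization covariate (all genes 0.07, 0.08 and 0.07).

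In M2a against M0, the listed genes did not move as a block. Rises were largest for Eno2 (4.46-fold), the glucose transporter Slc2a1 (4.12-fold), Fbp1 (3.24-fold), the fructose bisphosphatase that runs the phosphofructokinase step backwards, and Pfkp (2.67-fold). The falls were led by Slc2a3 (16.8-fold) and Pygl (9.65-fold). In the limma fit 15 of 35 passed, against 31.9% of all genes; 8 rose (18.6% of all genes) and 7 fell (13.3%). At least 2-fold changes were found in 7, against 9.36%, of which 5 were rises (4.41%) and 2 falls (4.95%), and the arrays of 15 did not overlap, against 35.1%. The median difference was 0.15 over the 35 and 0.07 over all genes; with the hybridization covariate these were -0.12 and 0.11, and without M0 arrays 1 and 4 they were 0.08 and 0.09. These counts lie nearer to those of all genes than the counts in M1 do. The count of 15 was 22 without M0 array 5, which added Pfkm, Pfkfb3, Pgam1, Ldha, Pdha1, Rpe and Gbe1, and 21 with M0 arrays 1 to 3 alone.

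Set directly against each other, M1 exceeded M2a for all 3 hexokinases, for Pfkl and Pfkfb3, and for the lactate exporter Slc16a3 and the pyruvate dehydrogenase kinase Pdk3. Among other genes, M2a exceeded M1 for Fbp1 (5.22-fold), Pfkfb4 (2.12-fold) and Pfkp (1.66-fold). In the limma fit 23 of 35 differed, against 29.4% of all genes; 16 were higher in M1 (13.7% of all genes) and 7 higher in M2a (15.6%). With quantile normalization that split was 13 and 9, and the calls of Hk1 and Hk3 were lost (limma adjusted p = 0.057 and 0.10). At least 2-fold differences were found in 9, against 11%, with 7 higher in M1 (5.51%) and 2 lower (5.47%), and the arrays did not overlap for 32, against 64.6%. The median difference, M1 minus M2a, was 0.46 for the 35 and -0.02 for all genes, or 0.16 and 0.02 with the actin covariate. Slc2a6 at 0.46, Aldoa at -0.32, Aldoc at 1.09 and Taldo1 at 0.36 each lost the call without M1 array 1 and without M1 array 3, and Taldo1 was 0.22 without M2a array 3.

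**Figure D1:**
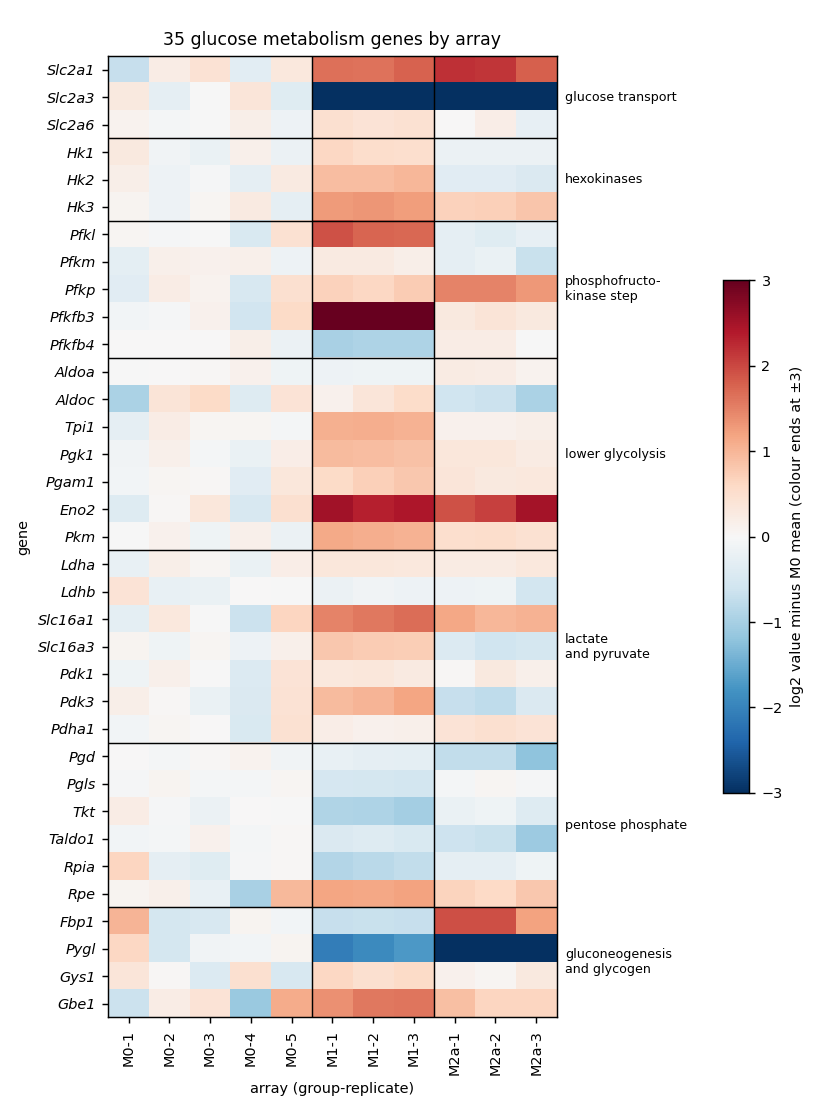
Each row is one of the 35 genes and each column one array; colour gives the log2 value minus the gene's M0 mean, with the colour scale ending at ±3. The M1 columns are mostly red down to the lactate genes and blue over the pentose phosphate genes from Pgd to Rpia, while Slc2a3 is dark blue in M1 and M2a and Pygl is lowest in M2a.

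**Figure D2:**
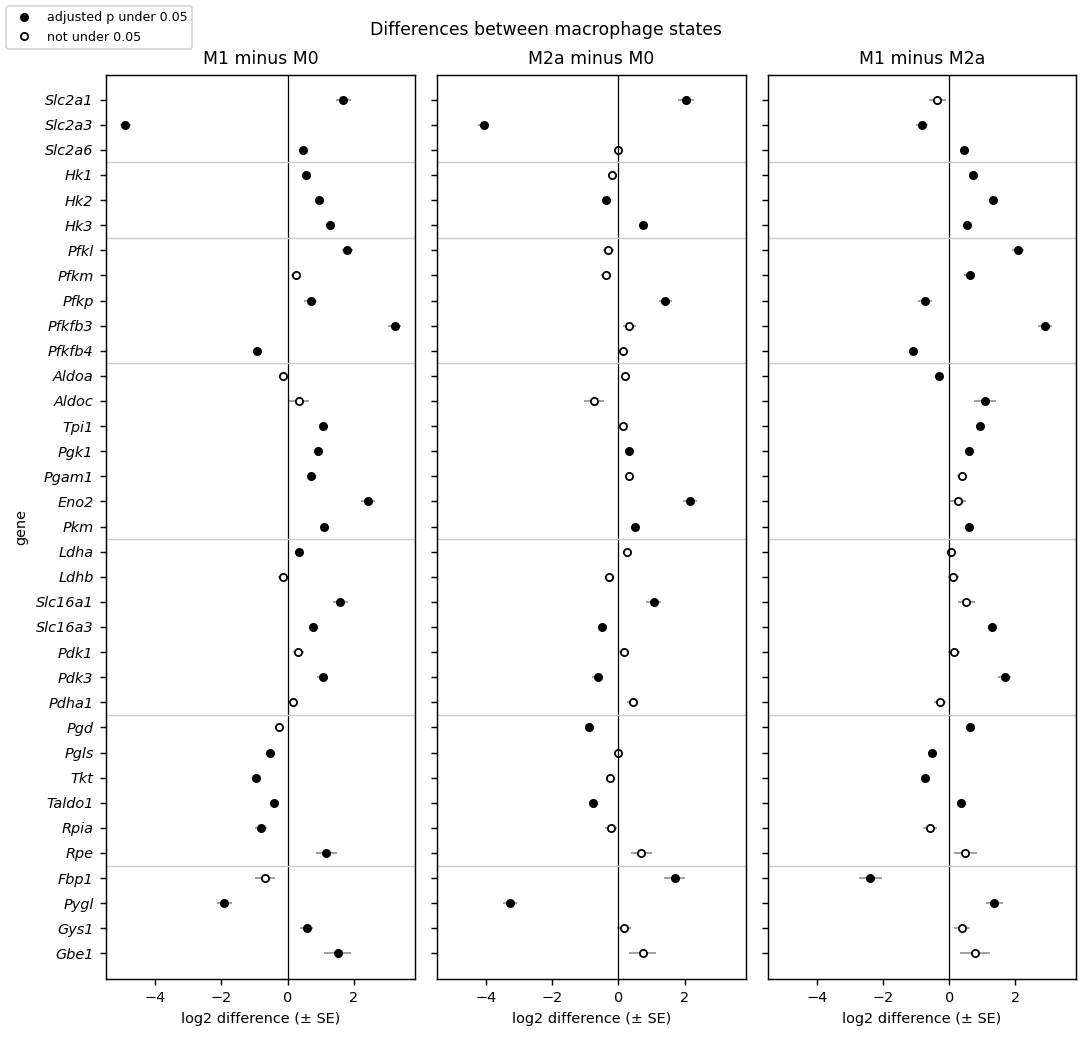
Log2 differences of the 35 genes in the 3 comparisons with standard errors as bars; filled circles passed the limma adjusted p of 0.05. The points of M1 minus M0 lie mostly right of 0 (20 rose, 7 fell), and those of M2a minus M0 lie on both sides (8 rose, 7 fell).

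Glucose enters through the SLC2A (GLUT) transporters, and both cytokine states had more transcript of one and less of another. Slc2a1, the widely expressed GLUT1 and the gene of the second promoter shown, had values of 7.61, 8.52, 8.73, 7.97 and 8.61 in M0, 9.94, 9.92 and 10.06 in M1, and 10.49, 10.44 and 10.08 in M2a. Every M1 and M2a array lay above every M0 array. Slc2a1 rose by 1.68 ± 0.23 (SE) in M1 (limma adjusted p = 1.4e-04) and by 2.04 ± 0.23 in M2a (limma adjusted p = 4.7e-05). The difference between M1 and M2a, -0.36 ± 0.26, did not pass (limma adjusted p = 0.33), though their arrays did not overlap. It passed in 4 of 24 alternative settings, among them with those 2 groups alone (limma adjusted p = 0.024). Adding the hybridization controls to the fit left 0.54 in M1 (limma adjusted p = 0.17) and 1.05 in M2a (limma adjusted p = 0.012). Slc2a6, a GLUT6 found in leukocytes, rose in M1 by 0.45 ± 0.12 (limma adjusted p = 0.0092), which quantile normalization reduced to 0.32 (limma adjusted p = 0.091), and stood at -0.01 in M2a minus M0.

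Slc2a3, the high-affinity GLUT3, moved the other way and furthest of the listed genes. Its values were 10.85, 10.30, 10.54, 10.92 and 10.20 in M0, 5.74, 5.65 and 5.62 in M1, and 6.39, 6.46 and 6.61 in M2a. The 3 groups were fully apart. In M1 it fell by 4.90 on the log2 scale, with an SE of 0.16 (limma adjusted p = 1.2e-09), and in M2a it fell by 4.07 with the same SE (limma adjusted p = 1.3e-08). M1 lay below M2a, with a difference of -0.82 ± 0.18 (limma adjusted p = 0.0047), which was -0.43 with the actin covariate (limma adjusted p = 0.070). GLUT3 is also abundant in neutrophils, and the neutrophil-lineage markers listed above fell in the same arrays. Slc2a3 was lowest in M1 and the neutrophil-lineage sum lowest in M2a. Of the 11 markers in that sum, 4 were higher in M1 than in M2a and 7 did not pass between these states. Their part in the Slc2a3 result was not tested.

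The 4 Slc2a3 probe sets gave 2 different pictures. Probe sets 1437052_s_at, the one used above, and 1455898_x_at were bright in M0 and dim after both treatments, and the second fell by 4.95 in M1 and fell by 3.83 in M2a, with an SE of 0.16 in both (limma adjusted p = 1.6e-09 and 3.1e-08, over 34945 probe sets). The suffixes _s_at and _x_at mark probe sets that may also match other transcripts. Probe sets 1421924_at and 1427770_a_at were dim on all arrays, from 2.98 to 5.02 and from 3.52 to 4.32. They fell in M1, by 1.13 (SE 0.24, limma adjusted p = 0.0031) and by 0.37 (SE 0.11, limma adjusted p = 0.024), and their M2a differences of -0.49 and 0.23 did not pass (limma adjusted p = 0.14 and 0.15). Thus the direction in M1 was shared by all 4 probe sets, and the fall in M2a rests on the 2 bright ones.

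**Figure D3:**
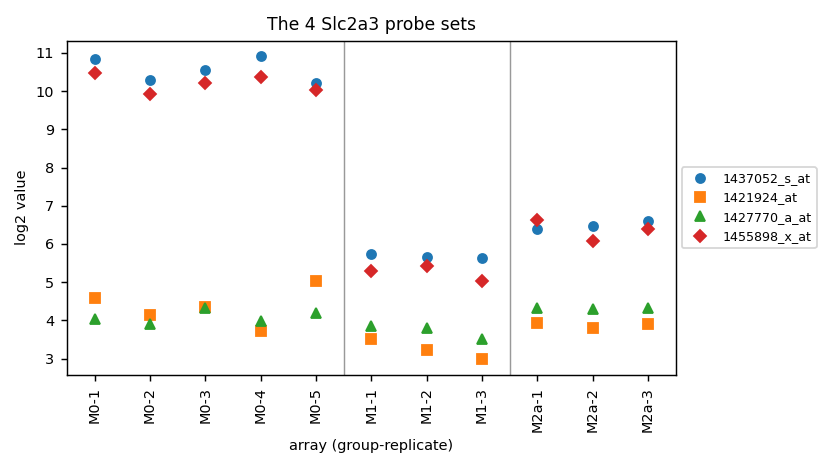
Log2 values of the 4 Slc2a3 probe sets on each of the 11 arrays, one symbol per probe set. The 2 bright probe sets drop from between 9.93 and 10.92 in M0 to between 5.03 and 5.74 in M1 and between 6.07 and 6.62 in M2a, and the 2 dim ones stay between 2.98 and 5.02.

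Hexokinases trap glucose in the cell as glucose 6-phosphate, and all 3 measured members rose in M1. Hk2, the isoform most often induced in proliferating and activated cells, had values of 9.59, 9.27, 9.39, 9.15 and 9.69 in M0, 10.35, 10.35 and 10.42 in M1, and 9.08, 9.08 and 8.98 in M2a. M1 lay above M0 and M2a below it, without overlap. Hk2 rose by 0.95 ± 0.12 in M1 (limma adjusted p = 7.5e-05) and exceeded M2a by 1.33 ± 0.14 (limma adjusted p = 1.5e-05). Its fall in M2a, -0.37 ± 0.12, passed narrowly (limma adjusted p = 0.035) and was lost in 11 of 24 alternative settings, among them leaving out M0 array 1 (limma adjusted p = 0.061). Hk3, the isoform of myeloid cells, ran from 10.19 to 10.72 in M0, from 11.72 to 11.78 in M1 and from 11.16 to 11.30 in M2a. It rose in both states, by 1.29 ± 0.12 in M1 and by 0.75 ± 0.12 in M2a (limma adjusted p = 5.2e-06 and 5.1e-04). Hk1, the isoform bound to mitochondria in most tissues, rose by 0.55 ± 0.12 in M1 (limma adjusted p = 0.0037), or by 0.34 after quantile normalization (limma adjusted p = 0.17), and its M2a difference was -0.18. Its other probe set, 1420901_a_at, rose by 1.84 in M1 and by 0.59 in M2a (limma adjusted p = 3.5e-05 and 0.047, over the probe sets).

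Phosphofructokinase commits sugar to glycolysis, and its isoforms parted between the 2 states. Pfkl, the liver-type subunit, had values of 7.01, 6.90, 6.92, 6.49 and 7.39 in M0, 8.86, 8.69 and 8.67 in M1, and 6.66, 6.58 and 6.69 in M2a. Only the M1 arrays stood clear of M0. Pfkl rose by 1.80 ± 0.16 in M1 (limma adjusted p = 4.3e-06) and differed from M2a by 2.09 ± 0.18 (limma adjusted p = 3.2e-06), while its M2a difference from M0 was -0.30 ± 0.16 (limma adjusted p = 0.18). Its other 2 probe sets also rose in M1, by 2.82 and 0.64. Pfkp, the platelet-type subunit, had values of 7.98, 8.54, 8.42, 7.82 and 8.80 in M0, between 8.93 and 9.06 in M1, and 9.79, 9.79 and 9.61 in M2a. The order was M0, M1, M2a, with no overlap. The difference between M1 and M2a, -0.73 ± 0.22 (limma adjusted p = 0.024), did not pass in 7 of 24 alternative settings, among them without any 1 of the M1 arrays. Pfkp rose by 1.42 ± 0.19 in M2a (limma adjusted p = 1.9e-04) and by 0.69 ± 0.19 in M1 (limma adjusted p = 0.015). With the hybridization covariate the M2a rise was 0.49 (limma adjusted p = 0.045). The M1 rise was 0.12 with the actin covariate and -0.37 with the hybridization covariate (limma adjusted p = 0.61 and 0.15), it was 0.41 without M0 arrays 1 and 4, and its call was lost without M1 array 3. Pfkm, the muscle-type subunit, differed only between M1 and M2a, by 0.62 ± 0.16 (limma adjusted p = 0.010).

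Of the bifunctional enzymes that set the level of fructose 2,6-bisphosphate, the activator of phosphofructokinase, the 2 among the listed genes moved apart in M1. Pfkfb3, the form whose kinase activity far exceeds its phosphatase activity and the gene of the first promoter shown, had values of 7.51, 7.56, 7.73, 7.03 and 8.17 in M0, 10.75, 10.87 and 10.88 in M1, and 7.90, 7.99 and 7.90 in M2a. M2a arrays lay inside the M0 range and M1 arrays far above it. Pfkfb3 rose by 3.23 ± 0.19 in M1 (limma adjusted p = 1.8e-07) and exceeded M2a by 2.90 ± 0.22 (limma adjusted p = 1.0e-06), and M2a minus M0 was 0.33 ± 0.19 (limma adjusted p = 0.22). Pfkfb4 ran from 8.11 to 8.46 in M0, from 7.31 to 7.36 in M1 and from 8.26 to 8.51 in M2a. It fell in M1 by 0.94 (SE 0.10, limma adjusted p = 1.9e-05), with 0.15 in M2a minus M0.

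Lower glycolysis, from aldolase to pyruvate kinase, rose in M1 for 5 of 7 listed genes and fell for none. Of all genes, 22.1% rose and 17.6% fell in M1. In M2a it rose for 3 of 7, where 18.6% of all genes rose. Pkm, the pyruvate kinase of most tissues, had values of 11.27, 11.40, 11.16, 11.44 and 11.11 in M0, 12.41, 12.36 and 12.33 in M1, and 11.78, 11.80 and 11.74 in M2a. The groups stood in 3 separate steps. Pkm rose by 1.09 ± 0.09 in M1 and by 0.50 ± 0.09 in M2a (limma adjusted p = 3.5e-06 and 0.0018). Tpi1, triosephosphate isomerase, rose by 1.07 ± 0.11 in M1 (limma adjusted p = 1.1e-05) and stood at 0.14 in M2a minus M0. Pgk1, the first ATP-making kinase of the pathway, rose by 0.92 ± 0.10 in M1 (limma adjusted p = 2.7e-05). Its rise in M2a, 0.32 ± 0.10, passed narrowly (limma adjusted p = 0.034) and was not kept in 12 of 24 alternative settings, among them without M0 array 1, 3 or 4 (limma adjusted p = 0.058, 0.065 and 0.057). Pgam1, phosphoglycerate mutase, rose in M1 by 0.70 ± 0.13 (limma adjusted p = 0.0014), or by 0.18 with the hybridization covariate (limma adjusted p = 0.51).

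Eno2, the enolase best known from neurons, was the one gene of lower glycolysis that rose over 2-fold in both states. Its values were 3.78, 4.20, 4.49, 3.68 and 4.64 in M0, 6.68, 6.50 and 6.59 in M1, and 6.08, 6.21 and 6.66 in M2a. The M1 and M2a arrays overlapped each other and lay above all M0 arrays. The rise was 2.43 ± 0.22 in M1 (limma adjusted p = 4.8e-06) and 2.16 ± 0.22 in M2a (limma adjusted p = 2.1e-05), or 1.29 and 1.16 with the hybridization covariate (limma adjusted p = 0.0033 and 0.0035). The aldolases did not pass against M0 on the probe sets used: Aldoa stood at -0.14 ± 0.08 in M1 and 0.19 ± 0.08 in M2a, and Aldoc at 0.35 ± 0.30 and -0.74 ± 0.30. Of the other 4 Aldoa probe sets, 1433604_x_at, 1439375_x_at and 1447734_x_at rose in M2a, by 0.45, 0.34 and 0.42, and 1439375_x_at fell in M1 by 0.57 (limma adjusted p = 0.0031, over the probe sets). A second, separate Aldoc probe set, 1424714_at, fell in both, by 1.12 in M1 and by 0.56 in M2a (limma adjusted p = 6.6e-04 and 0.040, over the probe sets), so the Aldoc probe sets disagree. The array's own Gapdh control probe sets were not part of the test of genes. The 3′ one averaged 12.54 ± 0.13 (SD, n = 5) in M0, 13.04 ± 0.03 (SD, n = 3) in M1 and 12.87 ± 0.03 (SD, n = 3) in M2a. The middle one averaged 12.21 in M0, 13.29 in M1 and 12.68 in M2a, and the 5′ one 12.17, 13.61 and 12.56. The size of the difference thus depends on the probe set.

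The main lactate dehydrogenase subunit, Ldha, differed little between the states. Ldha, which favours lactate formation and whose promoter shown above holds the most HIF cores of the 4, had values of 11.35, 11.76, 11.63, 11.39 and 11.78 in M0, 11.92, 11.91 and 11.90 in M1, and 11.82, 11.82 and 11.89 in M2a. All M1 and M2a arrays lay above M0, by little. The M1 rise was 0.33 ± 0.11 (limma adjusted p = 0.036), and 13 of 24 alternative settings did not keep it: it was lost without M0 array 1, 3 or 4 (limma adjusted p = 0.059, 0.051 and 0.062) and was -0.23 with the hybridization covariate. M2a minus M0 was 0.26 ± 0.11 (limma adjusted p = 0.10). Ldhb, the heart-type subunit, passed in none of the 3 comparisons on its brightest probe set, with -0.14 ± 0.15 in M1 and -0.27 ± 0.15 in M2a against M0. Its probe set 1434499_a_at fell in M1 by 0.86 and differed by -0.53 between M1 and M2a (limma adjusted p = 8.5e-04 and 0.032, over the probe sets).

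The monocarboxylate transporters, which carry lactate across the membrane, differed more than the enzyme. Slc16a1 (MCT1) had values of 7.57, 8.17, 7.84, 7.21 and 8.51 in M0, 9.34, 9.45 and 9.54 in M1, and 9.01, 8.86 and 8.91 in M2a. Both treated groups lay above M0. Slc16a1 rose by 1.59 ± 0.23 in M1 and by 1.07 ± 0.23 in M2a (limma adjusted p = 2.4e-04 and 0.0045), and with the hybridization covariate these were 0.36 and -0.00 (limma adjusted p = 0.31 and 1.00). Slc16a3 (MCT4), the exporter of highly glycolytic cells, had values of 5.07, 4.85, 5.03, 4.83 and 5.13 in M0, 5.80, 5.74 and 5.71 in M1, and 4.57, 4.38 and 4.45 in M2a. M1 lay above M0 and M2a below it, without overlap. The differences were 0.77 ± 0.10 in M1 (limma adjusted p = 7.2e-05), -0.51 ± 0.10 in M2a (limma adjusted p = 0.0018) and 1.28 ± 0.11 for M1 minus M2a (limma adjusted p = 3.0e-06). All 3 calls held in the 23 alternative settings in which the gene was tested. The setting limited to genes above the median gene left Slc16a3 out, and its signal is near background, which limits these differences.

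Entry of pyruvate into the mitochondrion is held back by the pyruvate dehydrogenase kinases. Pdk3 had values of 7.36, 7.22, 6.99, 6.75 and 7.63 in M0, 8.15, 8.21 and 8.37 in M1, and 6.50, 6.42 and 6.75 in M2a. M1 was clear of M0, while the highest M2a array met the lowest M0 array. Pdk3 rose by 1.06 ± 0.17 in M1 (limma adjusted p = 5.5e-04), or 0.54 with the actin covariate (limma adjusted p = 0.016) and 0.61 with the hybridization covariate (limma adjusted p = 0.16). It fell in M2a, -0.63 ± 0.17 (limma adjusted p = 0.017), a call that was lost without M2a array 1 and without M2a array 2. M1 exceeded M2a by 1.68 ± 0.20 (limma adjusted p = 4.4e-05). Pdk1, the kinase best known as a HIF-1 target, and Pdha1, the catalytic subunit of the dehydrogenase, passed in none of the 3 comparisons on their brightest probe sets, with 0.32 ± 0.16 and 0.16 ± 0.16 in M1 and 0.17 ± 0.16 and 0.43 ± 0.16 in M2a against M0. The Pdk1 probe set 1435836_at rose in M1 by 0.95 and exceeded M2a by 0.94 (limma adjusted p = 0.0074 and 0.019), and the Pdha1 probe set 1449137_at rose in M1 by 0.91 (limma adjusted p = 0.021, all over the probe sets).

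**Figure D4:**
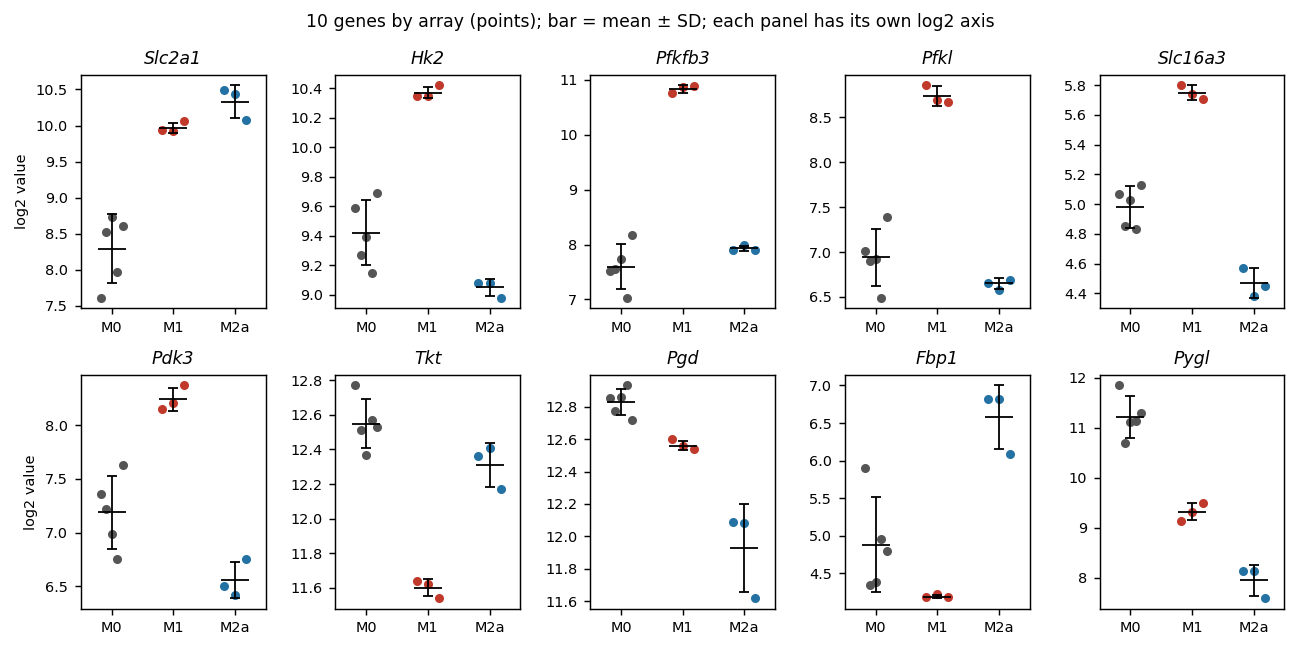
Log2 values of 10 of the genes on each array (points) with the group mean and SD (bars), n = 5 for M0 and n = 3 for M1 and M2a; each panel has its own axis. Pfkfb3, Pfkl, Slc16a3 and Pdk3 are highest in M1, Fbp1 is highest in M2a, Tkt is lowest in M1, and Pygl and Pgd are lowest in M2a.

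In the pentose phosphate pathway 6 of 7 listed genes were measured. In M1, 4 fell and 1 rose, where 17.6% of all genes fell and 22.1% rose. In M2a, 2 fell and none rose on the probe sets used, where 13.3% of all genes fell and 18.6% rose. Taldo1 fell in both. Tkt, transketolase of the non-oxidative branch, had values of 12.77, 12.51, 12.37, 12.57 and 12.53 in M0, 11.64, 11.62 and 11.54 in M1, and 12.36, 12.41 and 12.17 in M2a. Only M1 stood apart from M0. Tkt fell by 0.95 in M1 (SE 0.10, limma adjusted p = 2.1e-05) and was at -0.24 ± 0.10 in M2a (limma adjusted p = 0.10). Of its other probe sets, 1451015_at stood at -0.74 in M1, also a fall, and the dim 1436605_at rose in M2a by 0.73 and stood at 0.12 in M1.

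Pgd, 6-phosphogluconate dehydrogenase, the second NADPH-making step, showed the reverse order. Its values were 12.85, 12.77, 12.86, 12.93 and 12.72 in M0, 12.60, 12.56 and 12.54 in M1, and 12.09, 12.08 and 11.62 in M2a. The groups did not overlap, and M2a was lowest. The M2a fall was -0.90 ± 0.11 (limma adjusted p = 1.1e-04), and M1 minus M0, -0.26 ± 0.11, did not pass (limma adjusted p = 0.087). Taldo1, transaldolase, ran from 12.66 to 12.87 in M0, 12.29 to 12.35 in M1 and 11.66 to 12.13 in M2a. It fell in both states, by 0.42 in M1 and by 0.78 in M2a (SE 0.11, limma adjusted p = 0.012 and 2.8e-04). Pgls, the lactonase between the 2 oxidative steps, fell in M1 by 0.52 (SE 0.08, limma adjusted p = 2.5e-04) and was at -0.01 in M2a.

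The 2 pentose phosphate enzymes that act on ribulose 5-phosphate went opposite ways in M1. Rpia, the isomerase that makes ribose 5-phosphate, fell by 0.81 (SE 0.19, limma adjusted p = 0.0050), or stood at -0.13 with the hybridization covariate (limma adjusted p = 0.77). Rpe, the epimerase, had values of 8.41, 8.47, 8.09, 7.35 and 9.30 in M0, 9.50, 9.47 and 9.52 in M1, and 8.99, 8.92 and 9.12 in M2a. The M0 arrays were spread widely, with M0 array 5 close to M1 and M0 array 4 lowest. Rpe rose by 1.17 ± 0.31 in M1 (limma adjusted p = 0.011), and this was 0.05 with the actin covariate and -0.12 with the hybridization covariate (limma adjusted p = 0.78 and 0.87). Of its other probe sets 1416705_at rose by 0.52 in M1 and the dim 1448444_at fell by 0.52 (limma adjusted p = 0.022 and 0.029, over the probe sets). In M2a Rpe stood at 0.69 ± 0.31 (limma adjusted p = 0.12). That difference passed in 6 of 24 alternative settings and was -0.44 with the hybridization covariate (limma adjusted p = 0.45). Probe set 1416705_at rose in M2a by 0.56 (limma adjusted p = 0.019, over the probe sets).

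Among the genes of gluconeogenesis and glycogen, Fbp1 and Pygl gave the largest differences between the 2 cytokine states. Fbp1, whose promoter window shown above holds no HIF core, had values of 5.90, 4.35, 4.39, 4.96 and 4.80 in M0, 4.18, 4.22 and 4.18 in M1, and 6.82, 6.82 and 6.09 in M2a. M2a lay above all other arrays and M1 below all, with M0 array 1 close to M2a. Fbp1 rose by 1.70 ± 0.31 in M2a (limma adjusted p = 0.0015), stood at -0.69 ± 0.31 in M1 (limma adjusted p = 0.099), and differed by -2.38 ± 0.35 between M1 and M2a (limma adjusted p = 2.6e-04). Pygl had values of 11.85, 10.70, 11.11, 11.14 and 11.30 in M0, 9.14, 9.32 and 9.49 in M1, and 8.14, 8.13 and 7.59 in M2a. The groups formed 3 separate steps. Pygl fell by 1.91 in M1 and fell by 3.27 in M2a (SE 0.22, limma adjusted p = 3.8e-05 and 9.3e-07), and both calls held in all 24 alternative settings, in which the M1 difference came to -1.13 with the hybridization covariate. Neutrophils are rich in this enzyme. The neutrophil-lineage sum also fell from M0 to M1 to M2a, while 7 of its 11 markers did not pass between M1 and M2a. The part of neutrophils in the Pygl result was not tested.

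Both enzymes of glycogen synthesis rose in M1, with weak support. Gbe1, the branching enzyme, had values of 5.99, 6.85, 7.05, 5.51 and 7.75 in M0, 7.99, 8.21 and 8.23 in M1, and 7.54, 7.28 and 7.28 in M2a. M0 spanned more than 2 log2 units, and M1 lay above it. The rise in M1 was 1.51 ± 0.40 (limma adjusted p = 0.010). It was 0.93 without M0 arrays 1 and 4, 0.23 with the actin covariate and -0.66 with the hybridization covariate (limma adjusted p = 0.57 and 0.23). Gys1, glycogen synthase of muscle and most other tissues, rose by 0.57 ± 0.20 in M1 (limma adjusted p = 0.047), which was lost in 12 of 24 alternative settings, among them without M0 array 2, 3 or 5. Its other probe set, 1450196_s_at, rose by 1.38 ± 0.12 in M1 and by 0.42 ± 0.12 in M2a (limma adjusted p = 6.1e-06 and 0.024, over the probe sets).

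Much of the spread within M0 lay between arrays 4 and 5, which also had the lowest and the highest actin 5′ to 3′ difference (-1.27 and 0.05). M0 array 5 exceeded M0 array 4 by 2.24 for Gbe1, 1.94 for Rpe, 1.30 for Slc16a1 and 1.14 for Pfkfb3. It lay below by 0.95 for Gys1 (array 5 minus array 4 was -0.95) and by 0.72 for Slc2a3 (-0.72). The difference for Tkt was -0.04, for Pgls 0.11 and for Taldo1 0.09, so the pentose phosphate genes other than Rpe varied little between these arrays. For Pfkfb3 the M1 rise was larger than this spread, and for Gbe1 and Rpe it was smaller.

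**Figure D5:**
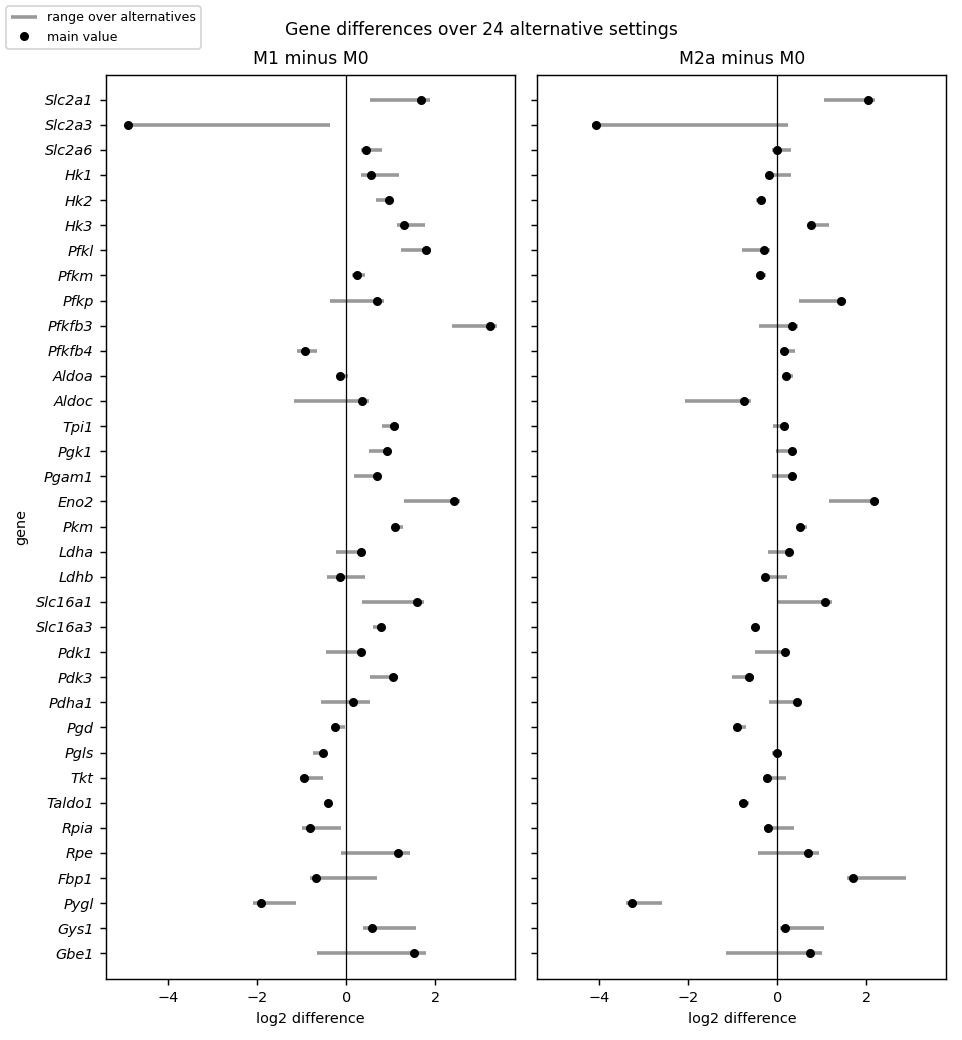
For each gene the main log2 difference from M0 (point) and the range over the alternative settings (grey bar), for M1 (left) and M2a (right); most genes have 24 settings. The bars of Pfkfb3, Pfkl, Hk2, Hk3, Pkm and Eno2 stay right of 0 in M1, those of Pygl stay left of 0 in both, and those of Gbe1, Rpe, Ldha and Pfkp cross 0 in M1.

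Other genes of the same pathways also moved in both directions. Of 55 measured genes out of 63 listed, 18 rose and 6 fell in M1, where 22.1% of all genes rose and 17.6% fell. In M2a, 14 rose and 5 fell, where 18.6% rose and 13.3% fell. Of the 7 pentose phosphate genes among them, 1 rose and 0 fell in M1, and 0 rose and 1 fell in M2a. The largest changes in M1 were those of Ldhc, the testis-type lactate dehydrogenase (-2.96 ± 0.34), Bsg (2.39 ± 0.20), Adpgk (-2.07 ± 0.17) and Pck2 (-1.95 ± 0.10), with limma adjusted p of 3.7e-05, 2.4e-06, 2.0e-06 and 7.3e-08. Bsg is the chaperone that brings Slc16a1 and Slc16a3 to the membrane, and its values were 8.56, 9.27, 9.13, 8.54 and 9.44 in M0, 11.41, 11.42 and 11.31 in M1, and 9.44, 9.45 and 9.66 in M2a. It therefore moved in M1 in the direction of both transporters. In M2a, Pdp1, a phosphatase that activates pyruvate dehydrogenase, rose by 1.74 ± 0.40 and Pdk4, a kinase that inhibits it, fell by 1.73 (SE 0.25) (limma adjusted p = 0.0062 and 2.6e-04). The Pdk4 probe set was dim on all arrays, averaging 4.15 in M0 and 2.43 in M2a, so the size of its fall is uncertain. Shpk, a kinase of the pentose phosphate pathway, was dim on all arrays and stood at -0.10 ± 0.09 in M1 and 0.15 ± 0.09 in M2a.

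The 2 oxygen-regulated HIF subunits differed between the states, in opposite directions. Hif1a, the subunit of HIF-1, had values of 9.98, 10.12, 10.10, 9.44 and 10.70 in M0, 12.53, 12.65 and 12.68 in M1, and 9.93, 9.92 and 10.09 in M2a. Only M1 was above M0, by 2.56 ± 0.21 (limma adjusted p = 2.3e-06), M2a minus M0 was -0.08 ± 0.21, and M1 exceeded M2a by 2.64 ± 0.23 (limma adjusted p = 4.7e-06). Epas1, the subunit of HIF-2, moved by -2.45 ± 0.40 in M1 and by 2.09 ± 0.40 in M2a (limma adjusted p = 4.7e-04 and 0.0019). Among the listed genes, on the probe sets used, Pfkfb3, Pfkl, Tpi1, Hk1 and Slc2a6 rose in M1, did not pass in M2a against M0 and were higher in M1 than in M2a. The other Hk1 probe set also rose in M2a. Slc2a1, Hk3, Pfkp, Pgk1, Eno2, Pkm and Slc16a1 rose in both states. A link of these patterns to Hif1a was not tested. Of 14 measured HIF targets outside metabolism 5 rose and 3 fell in M1, where 22.1% and 17.6% of all genes did, with Bnip3 at 1.74 ± 0.14 and Vegfa at 1.66 ± 0.19 among the rises and Ndrg1 at -2.72 ± 0.11 and Mxi1 at -2.20 ± 0.14 among the falls. In M2a 4 rose and 3 fell, against 18.6% and 13.3% of all genes. The glucose-responsive pair Txnip and Arrdc4 parted in M1, with Txnip at -1.97 ± 0.12 and Arrdc4 at 1.58 ± 0.22 (limma adjusted p = 2.0e-07 and 1.5e-04).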

How the data were processed

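Total RNA of sorted macrophages was hybridized to an Affymetrix mouse array. The authors deposited 1 log2 value per array for each of 45101 probe sets (11 arrays). The submitters' processing notes name Partek with no version; how background was corrected, probes summarised and arrays normalized is not given in the sources used here. Medians per array lay between 5.14 and 5.34, and precision is limited by how many arrays there are. The probe-to-gene table covered 35890 probe sets: 34945 had 1 symbol, and 932 had several and were left out. Symbols were updated by Entrez identifier. Each of 18193 genes kept its probe set with the highest mean. Differences were tested in R 4.3.3 by limma 3.58.1, using lmFit with 1 mean per group over all 11 arrays and then eBayes, with Benjamini-Hochberg adjustment over all genes and a threshold of 0.05; a second limma fit covered the 34945 probe sets. Folds are 2 to the power of the difference. The fit was tested on simulated data. It counts the M0 arrays as independent, which the equal means of M0 arrays 1 to 3 and 4 and 5 contradict. All 35 measured genes are reported. Other pathway genes are named where they passed, differed at least 2-fold and did not overlap, at most 4 per list and comparison, with Hif1a, Shpk and Gapdh always. The listed genes, the other gene lists and the motifs were chosen with earlier results of these data known. The alternatives were other probe-set rules, normalizations, filters, eBayes settings, array weights, subsets of arrays, the replicate number as a block, and 2 control-probe covariates. The result for 1 further motif is not reported here.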

Additional observations from a re-analysis of the deposited data

How the results depend on the processing

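In 24 alternative settings, 14 of the 27 genes called in M1 against M0 kept their call and direction in every setting, 10 of 15 in M2a against M0 and 15 of 23 in M1 against M2a. Values changed sign as follows, and the cause was not tested. In M2a against M0, Slc2a3 was 0.23 without _x_at and _s_at probe sets, which removes its bright probe sets. With the actin covariate, Pdha1 was -0.36 in M1 against M0 and Rpe -0.58 in M1 against M2a. With the hybridization covariate, M1 against M0 gave -0.37 for Pfkp, -1.18 for Aldoc, -0.23 for Ldha, -0.12 for Rpe and -0.66 for Gbe1, and M2a against M0 gave -0.03 for Pgk1, -0.00 for Slc16a1, -0.50 for Pdk1 and -1.16 for Gbe1. Sign changes called in neither fit numbered 15, 24 and 10 in the 3 comparisons. With the hybridization covariate the count of called genes in M1 against M0 was 18. The count in M2a against M0 was 23 with array weights and 25 with the actin covariate. In M1 against M2a, 32 listed genes were called with array weights and 31 with those 2 groups alone. Over all genes, the count in M1 against M0 was 4625 among genes above the median, where fewer were tested; in M1 against M2a it was 11342 with array weights, 8653 without M0 arrays 1 and 4, 8103 with the hybridization covariate and 10357 with those 2 groups alone. Leaving out 1 array at a time gave 24 to 27, 12 to 22 and 18 to 24 called listed genes in the 3 comparisons (22 without M0 array 5), and 5391 to 8457, 4161 to 6829 and 3927 to 6192 over all genes. Whether the replicate numbers pair the arrays stayed undecided, since each group has few arrays and the M0 arrays do not vary independently. The correlations of same-numbered deviations were 0.248, 0.04 and 0.168 for M1 with M0 and 0, 0.008 and -0.039 for M2a with M0. For M1 with M2a they were 0.038, 0.009 and 0.016. Of 6 arrays in each comparison, 4, 0 and 5 correlated best with their own number. With the replicate block, 28, 21 and 27 of the listed genes were called, against 27, 15 and 23 without it; over all genes it gave 8023, 6492 and 6963. Signal near background limits Eno2, Slc16a3, Fbp1, Pdk4 and the dim probe sets of Slc2a3, since no detection calls were used.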
